A study of Rattus norvegicus with 23 samples.

Results

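The comparison of delayed shock-resistant (DSR) with always sensitive (AS) rats rested on 11 of the 23 dorsal striatal libraries of the study, chosen by the treatment given in the labels, with 5 DSR and 6 AS libraries. All rats were male Long Evans rats, a wild-type outbred strain, and each library was made from the dorsal striatum of 1 rat. DSR and AS rats had both self-administered methamphetamine (METH) at 0.1 mg/kg per infusion over 22 training days. Both groups then suppressed their intake over 8 days in which lever presses could bring footshocks that rose from 0.18 to 0.36 mA. After 15 days of abstinence and 12 more days of METH access, footshocks of 0.30 mA returned for 3 days, and DSR rats kept taking METH whereas AS rats suppressed their intake again. A further 15 days of abstinence followed. In both abstinence periods the rats were tested for METH seeking on days 1 and 15, with the drug cues but without drug. Tissue was collected on the day after the last of these tests. The values of 6 saline controls (CT), which received neither METH nor shocks, and of 6 always shock-resistant (ASR) rats, which followed the same METH and shock schedule as the other METH rats and resisted in both shock phases, are given beside the comparison where they bear on it.

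The groups were formed from behavior and not by random assignment. METH intake under the second footshocks, the shocks received, lever pressing in the seeking tests and the phenotype therefore cannot be told apart in these libraries. Each rat is named by its group and the code in its label, which begins with Grp7 or Grp8. The labels do not explain this number, which was treated as a cohort. Cohort 7 held 2 DSR and 4 AS rats, and cohort 8 held 3 DSR and 2 AS rats.

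METH enters dopamine terminals through the dopamine transporter, empties vesicular stores and raises extracellular dopamine, and the striatum is the main target of midbrain dopamine neurons. Its dorsal part takes part in action selection and in the shift from goal-directed to habitual responding. Footshock paired with drug taking is used in rodents as a model of drug use that persists in spite of adverse consequences, and the question here is which transcripts separate rats that returned to punished METH taking from rats that did not. The files list genes by Ensembl identifier without symbols, so genes are described here by position, size, exon number and level, and the marker genes of the striatum and of neighboring tissue were not analysed here.

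Expression differed between DSR and AS rats by small amounts in many genes, and no gene passed the adjustment for the number of genes in edgeR's fit of all groups. Of 16275 genes tested, 4111 (25.3%) had an unadjusted p under 0.05 in edgeR's quasi-likelihood test. About 814 would pass this threshold on average if no gene differed. Genes that vary together widen the spread around that number, which was not estimated. Among the 4111 genes, 2160 (13.3% of all genes tested) were higher and 1951 (12.0%) were lower in DSR rats. The median size of the difference over all genes was 0.14 on the log2 scale, and 3257 of the 4111 genes differed by less than 1.5-fold. At least 1.5-fold change with an unadjusted p under 0.05, the rule that the study used, was met by 854 genes (5.25%), of which 448 (2.75%) were higher and 406 (2.49%) were lower in DSR rats. A change of 2-fold or more with the same p was found for 139 higher and 121 lower genes.

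After Benjamini-Hochberg adjustment in edgeR's test, 0 genes (0.0%) had an adjusted p under 0.05, and 455 genes shared the smallest adjusted p of 0.0993. DESeq2 called 750 genes at this threshold with all groups in the fit and 1811 with only the DSR and AS libraries. A single rat also decided this count, since edgeR's test called 1954 genes without DSR rat Grp8-L9 and 904 without AS rat Grp7-L10. At the study's rule, the count was 470 without DSR rat Grp7-R7 and 1446 without DSR rat Grp8-L9. Every rat of one group was above every rat of the other in 403 genes (2.48%), with DSR rats on top in 241 (1.48%) and AS rats in 162 (0.995%).

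**Figure D1:**
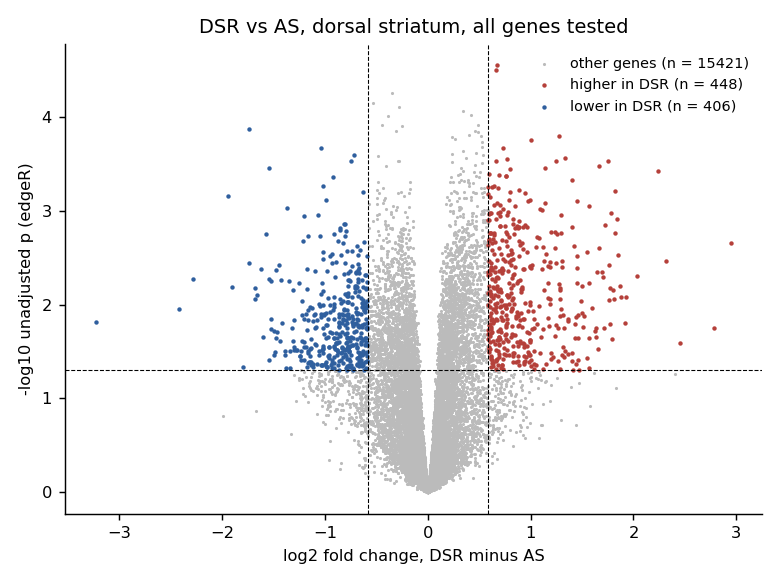
Log2 fold change of DSR minus AS rats (horizontal axis) against -log10 of the unadjusted p from edgeR's test (vertical axis) for the 16275 genes tested, 1 point per gene, with dashed lines at the thresholds of the study's rule. The 448 genes higher in DSR rats are in red and the 406 lower genes in blue, and the genes under 1.5-fold above the horizontal line outnumber both.

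The 448 higher and the 406 lower genes were of different kinds. The higher genes had a median span of 30.5 kb on the genome and a median exonic length of 2610 bases, against 15.3 kb and 1820 bases for the lower genes and 19.3 kb and 2265 bases for all genes tested. Both sets were of low level, with a median of 2.00 CPM (counts of a gene scaled to the size of its library) per kilobase of exon in the higher genes and 1.77 in the lower genes, against 7.95 over all genes. In the third of genes with the highest level, 19.3% were higher in DSR rats at an unadjusted p under 0.05 and 13.3% were lower, but 0.995% and 0.571% also reached 1.5-fold. In the third with the lowest level, 7.47% were higher and 9.95% lower, and 4.83% and 5.66% also reached 1.5-fold. Of the genes called by the study's rule, 262 of the 448 higher and 307 of the 406 lower ones came from that class of lowest level.

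Gene span ordered the direction of the differences. Among 5473 genes that span under 10 kb from their first to their last exon, 449 (8.20%) were higher and 764 (14.0%) were lower in DSR rats at an unadjusted p under 0.05. The shares were 11.3% and 13.1% of 6687 genes of 10 to 50 kb, 19.9% and 8.56% of 2126 genes of 50 to 100 kb, and 26.0% and 6.61% of 1876 genes of 100 to 500 kb. Of 113 genes that span 500 kb or more, 43 (38.1%) were higher and 6 (5.31%) were lower, beside 13.3% and 12.0% of all genes. The median log2 fold change went from -0.04 under 10 kb through -0.01, 0.04 and 0.09 to 0.19 at 500 kb or more, with -0.01 over all genes. The study's rule was met by 14 higher genes (12.4%) and 1 lower gene (0.885%) of the longest class, beside 2.75% and 2.49% of all genes. These counts describe the genes and were not tested as sets.

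**Figure D2:**
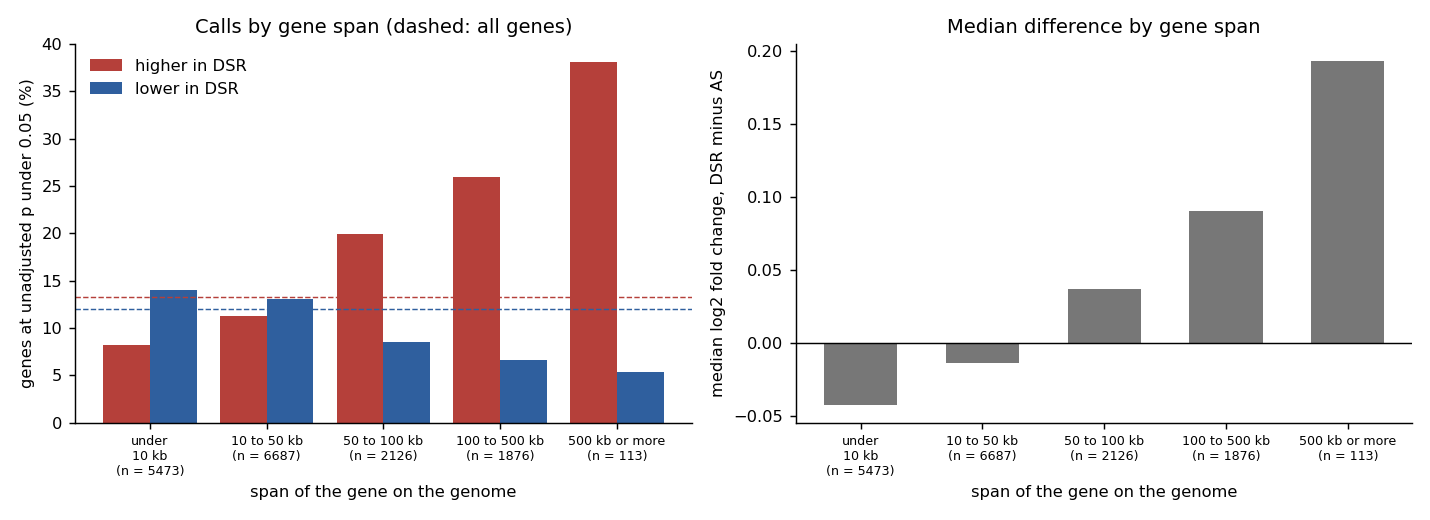
Left, percent of genes higher (red) or lower (blue) in DSR rats at an unadjusted p under 0.05 by the span of the gene, with the percent over all genes tested as dashed lines; right, median log2 fold change of DSR minus AS rats in the same classes. The higher share climbs from 8.20% to 38.1% with span while the lower share declines from 14.0% to 5.31%.

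The order of the higher shares was also seen within genes of like level, and that of the lower shares was not seen at low level. In the third of genes with the highest level, 12.6% of the genes under 10 kb, 32.3% of those of 100 to 500 kb and 41.9% of those of 500 kb or more were higher in DSR rats, and 260 of 1238, 45 of 734 and 1 of 43 were lower. Among the genes of lowest level the higher shares were 5.65%, 15.9% and 16.7%, whereas 234 of 2604, 37 of 471 and 3 of 30 were lower. Longer transcripts were also more often higher, and the span and the exonic length of a gene go together. Of 348 genes with 8 kb or more of exon, 125 (35.9%) were higher and 17 (4.89%) lower, whereas 139 (5.86%) were higher and 310 (13.1%) lower of 2371 genes with under 1 kb. Within genes of 2 to 4 kb of exon, 12.5% were higher among those that span under 10 kb, 23.1% among those of 100 to 500 kb and 29.0% among those of 500 kb or more. Within genes of 100 to 500 kb, the higher share went from 21.4% at 1 to 2 kb of exon to 38.6% at 8 kb or more. By exon number, 9.46% of 1216 genes with 1 exon and 26.9% of 316 genes with 41 or more exons were higher.

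Rats were compared by the median deviation of the 113 longest genes from their mean over the 23 libraries, in log2 CPM. It was 0.08 in DSR rat Grp7-L2, 0.23 in Grp7-R7, 0.12 in Grp8-L4, -0.01 in Grp8-L9 and 0.07 in Grp8-R1. In AS rats it was lowest at -0.16, had a median of -0.10 and was highest at -0.03 in rat Grp8-R10. The AS rats were all below the DSR rats, and Grp8-L9 was the DSR rat nearest to them. CT rats ranged from -0.14 to 0.29 and ASR rats from -0.10 to 0.14, so both overlapped the DSR and the AS rats. The means were 0.10 ± 0.09 (SD, n = 5) in DSR rats, -0.10 ± 0.06 (SD, n = 6) in AS rats and 0.04 ± 0.16 (SD, n = 6) in CT rats. The SD was thus larger among the CT rats, which share one treatment and come from both cohorts, than within the DSR or the AS group. The higher share of the longest genes was 24.8% without DSR rat Grp7-R7, 16.8% within cohort 8 and 40.7% within cohort 7, where 7.87%, 5.74% and 11.7% of all genes were higher.

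On the X chromosome, 105 of 549 genes (19.1%) were higher in DSR rats and 48 (8.74%) were lower, beside 13.3% and 12.0% of all genes. By the study's rule 30 (5.46%) were higher and 5 (0.911%) lower, beside 2.75% and 2.49% of all genes. The share higher was larger than on the autosomes in each class up to 100 kb, with 16.6% of 205 X-linked genes under 10 kb against 7.92% of 5225 autosomal genes, 15.2% against 11.2% at 10 to 50 kb, and 27.3% against 19.6% at 50 to 100 kb. At 100 to 500 kb the shares were 28.0% of 75 X-linked and 25.9% of 1800 autosomal genes. The median deviation of X-linked genes ranged from 0.01 to 0.06 in DSR rats and from -0.05 to 0.00 in AS rats. CT rats ranged from -0.09 to 0.04 and ASR rats from -0.02 to 0.06, so both overlapped the DSR and the AS rats. Within cohort 7, 16.7% of the X-linked genes were higher at this threshold against 11.7% of all genes, and within cohort 8 6.29% against 5.74%, which is near the share of all genes. The median log2 fold change was 0.06 in cohort 7 and 0.04 in cohort 8.

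Chromosome 20 was the autosome with the smallest higher share, 34 of 480 genes (7.08%), and the largest lower share, 82 genes (17.1%), beside 13.3% and 12.0% of all genes. Its first 5 Mb of the Rnor6.0 genome held 120 tested genes, of which 3 were higher and 25 (20.8%) were lower in DSR rats, with a median log2 fold change of -0.11. Genes here are short, with a median span of 14.9 kb on chromosome 20 and 4.96 kb in this window, against 19.3 kb over all genes. Of all genes under 10 kb, 8.20% were higher and 14.0% lower, and chromosome 20 was not split by span. In windows of 5 Mb with at least 15 tested genes, the largest higher shares were on chromosome 7, with 7 of 16 genes at 55000001 to 60000000 and 6 of 15 at 80000001 to 85000000. The largest lower share was 6 of 16 genes on chromosome 3 at 140000001 to 145000000. Each of these windows holds few genes, and the windows were ranked after their values were seen.

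Transcripts of the mitochondrial genome, which encodes subunits of the respiratory chain, showed no difference between the groups that passed a test. Of the 13 mitochondrial genes over 200 bases, 8 had a positive and 5 a negative log2 fold change, from -0.04 to 0.14, and none had an unadjusted p under 0.05 in edgeR's test. They held 12.7% to 14.8% of the counts of DSR libraries, together with the smaller mitochondrial genes. In AS libraries the share was 11.9% at the lowest, 13.1% at the median and 19.6% in rat Grp7-R1, which stood apart from the other AS rats. The difference in means, 13.9% ± 0.973 (SD, n = 5) against 13.8% ± 2.88 (SD, n = 6), was within the spread between rats (two-sided exact permutation test, p = 0.939).

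Sequencing depth separated the groups in full. Total counts ranged from 24588332 to 28137676 in DSR and from 19921481 to 24019678 in AS libraries (two-sided exact permutation test, p = 0.00433; adjusted over 4 library measures, 0.00866). Genes with at least 1 count numbered 20343 to 20521 in DSR and 19789 to 20296 in AS rats, with the same p. With all libraries thinned to 18967015 counts, the numbers overlapped, from 19927 to 20121 and from 19726 to 20051. At this equal depth, 4013 genes had an unadjusted p under 0.05 and 817 also reached 1.5-fold. Over all 16031 genes tested at this depth, 13.3% were higher and 11.8% lower in DSR rats. The higher share of the longest genes was again 38.1%, and that of X-linked genes was 19.4%. Of the 854 genes called by the study's rule at full depth, 764 (89.5%) had an unadjusted p under 0.05 in the same direction after thinning, and 18 were not tested.

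The cohorts share no rat, so genes called in one could be read in the other. In cohort 7, the study's rule called 487 genes higher (2.94%) and 1103 lower (6.67%) in DSR rats. In cohort 8 it called 516 higher (3.14%) and 142 lower (0.863%). Of the 482 higher genes of cohort 7 that were also tested in cohort 8, 401 (83.2%) had a positive log2 fold change there, with a median of 0.32, and 99 (20.5%) were higher at an unadjusted p under 0.05 against 5.80% of all genes tested in both cohorts and 5.74% of all genes tested in cohort 8. In the reverse direction, 450 of 515 genes (87.4%) were positive in cohort 7, with a median of 0.54, and 86 (16.7%) were higher there against 11.9% of all genes. About equal numbers of all genes were positive and negative in each cohort, with 50.9% positive in cohort 8 and 50.1% in cohort 7.

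Genes lower in DSR rats were carried over less evenly. Of the 1087 lower genes of cohort 7, 18.4% were positive in cohort 8, the median there was -0.23, and 16 (1.47%) were lower at an unadjusted p under 0.05, beside 2.42% of the genes tested in both cohorts and 2.43% of those tested in cohort 8. Of the 136 lower genes of cohort 8, 67 (49.3%) were positive in cohort 7 and 11 (8.09%) were lower there, beside 13.8% of all genes. The study's rule was met in the same direction in both cohorts by 75 genes for the higher direction, 15.6% of the list of cohort 7 and 14.6% of that of cohort 8. It was met in both by 11 genes for the lower direction, 1.01% and 8.09% of the lists. Of the 854 genes called over all rats, 530 had an unadjusted p under 0.05 in the same direction in cohort 7 and 302 in cohort 8, where 267 of these were higher and 35 lower, and 9 of the 854 had the other sign there. These genes were chosen on the rats of both cohorts, so their direction within a cohort is partly fixed by the choice. Cohort 8 held only 2 AS rats and cohort 7 only 2 DSR rats, so a single rat weighs heavily in each of these counts.

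**Figure D3:**
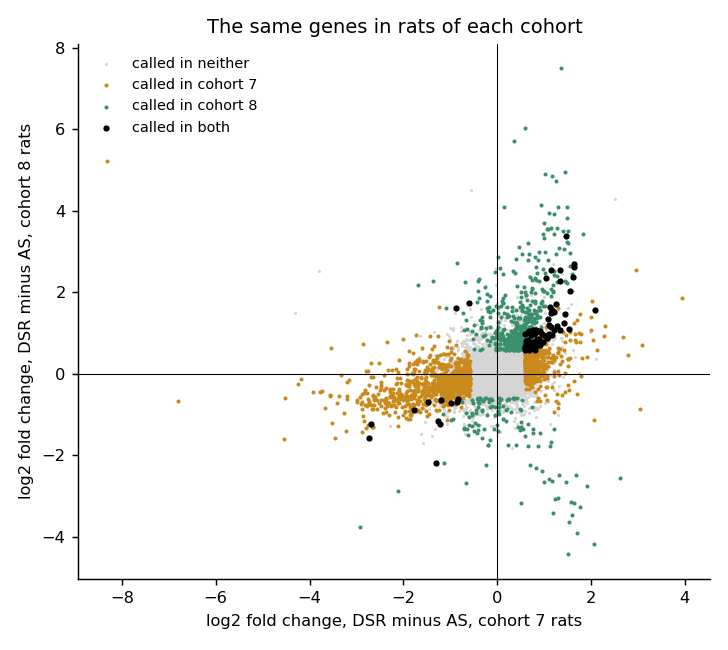
Log2 fold change of DSR minus AS rats in cohort 7 (horizontal axis, 2 DSR and 4 AS rats) and in cohort 8 (vertical axis, 3 DSR and 2 AS rats), 1 point per gene, colored by where the gene met 1.5-fold and an unadjusted p under 0.05. The genes higher in cohort 8 lie mostly right of zero, the genes lower in cohort 7 lie close to zero on the vertical axis, and a group at the lower right is lower in cohort 8 and higher in cohort 7.

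To place each rat, genes were chosen by the study's rule with that rat left out, and the median deviation of the lower genes was subtracted from that of the higher genes. The result was scaled so that the mean of the other AS rats is 0 and that of the other DSR rats is 1. DSR rat Grp7-R7 was placed at 1.45, Grp8-R1 at 0.98, Grp8-L4 at 0.72, Grp7-L2 at 0.68 and Grp8-L9 at 0.13. AS rats Grp7-R2 and Grp7-R9 were at -0.18 and -0.11, Grp8-R10, Grp8-L5 and Grp7-R1 were at 0.11, 0.13 and 0.16, and Grp7-L10 was at 0.69. DSR rat Grp8-L9 was therefore among the AS rats and AS rat Grp7-L10 among the DSR rats on genes in whose choice they had no part. On the genes chosen from all 11 rats, CT rats ranged from 0.10 to 1.498 with a median of 0.95, and ASR rats from 0.26 to 0.96 with a median of 0.56. CT rat Grp7-R5, at 0.10, lay with the AS rats although it had received neither METH nor shocks.

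**Figure D4:**
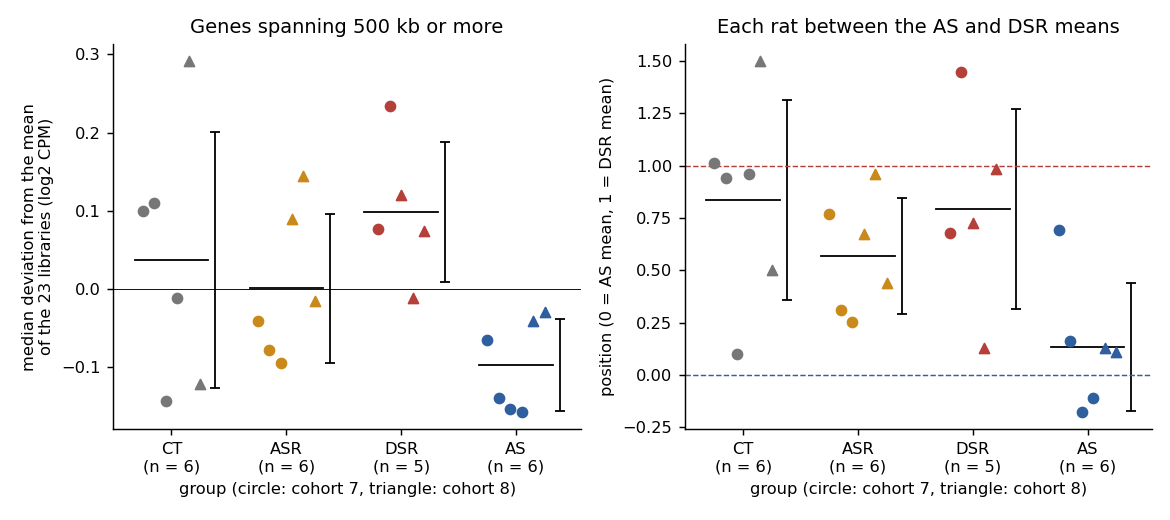
Left, median deviation of the 113 genes spanning 500 kb or more from their mean over the 23 libraries, in log2 CPM, by group; right, position of each rat between the AS mean (0) and the DSR mean (1), with DSR and AS rats left out of the choice of genes. Circles are cohort 7 and triangles cohort 8, horizontal bars are means and error bars SD; DSR rat Grp8-L9 at 0.13 lies among the AS rats and AS rat Grp7-L10 at 0.69 among the DSR rats.

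Read against the controls, the genes higher in DSR than in AS rats lay close to the CT level in DSR rats, and the lower genes lay below it. The 448 higher genes had a median log2 fold change of 0.83 for DSR minus AS rats by their choice, of 0.03 for DSR minus CT rats and of -0.81 for AS minus CT rats. The 406 lower genes had medians of -0.83, -0.28 and 0.58 in the same order. For ASR minus AS rats the medians were 0.59 and -0.39. These contrasts share the DSR or the AS libraries from which the genes were chosen, so their values are given side by side and are no separate evidence. For the 113 longest genes the medians were 0.19 for DSR minus AS, 0.06 for DSR minus CT, -0.11 for AS minus CT and 0.10 for ASR minus AS rats. For X-linked genes, the median was 0.04 for DSR minus AS, 0.04 for DSR minus CT, 0.00 for AS minus CT and 0.02 for ASR minus AS rats.

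The following 4 genes are given by identifier with the value of each rat, 2 higher and 2 lower in DSR rats with the smallest p among genes with at least 1.5-fold change and a mean of at least 1 CPM over the 11 libraries. Each had an adjusted p of 0.0993 (edgeR, Benjamini-Hochberg), none overlaps another annotated gene, and coordinates are those of Rnor6.0 in the files. They were chosen for their difference, so their values are a description.

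ENSRNOG00000039241 is a minus-strand gene of chromosome 1 (182085899 to 182140570) with 34 exons in 3828 bases. It was at 7.78 CPM in DSR rat Grp7-L2, 9.75 in Grp7-R7, 7.57 in Grp8-L4, 7.99 in Grp8-L9 and 7.11 in Grp8-R1. In AS rats it was lowest at 4.22, had a median of 5.15 and was highest at 5.66 CPM. All DSR rats were above all AS rats, Grp8-L9 included, with 177 to 249 against 89 to 124 counts per library. The log2 fold change was 0.67 with a standard error of 0.13. The means of CT and ASR rats, 5.59 ± 0.998 and 6.09 ± 1.02 CPM (SD, n = 6 each), were nearer to that of AS rats. DSR minus CT was 0.52 with a standard error of 0.13. The highest CT rat was at 7.21 and the highest ASR rat at 7.87 CPM, so both groups overlapped the DSR rats.

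ENSRNOG00000025111, a plus-strand gene of chromosome 1 (88885937 to 88892615) with 9 exons in 1817 bases, stood differently to the controls. It was at 2.5 CPM in DSR rat Grp7-L2, 1.80 in Grp7-R7, 2.70 in Grp8-L4, 1.81 in Grp8-L9 and 2.21 in Grp8-R1, and from 1.27 through a median of 1.41 to 1.51 CPM in AS rats. The groups did not overlap, and the log2 fold change was 0.66 with a standard error of 0.13. CT rats were between 2.09 and 2.60 CPM, within the range of DSR rats, and ASR rats between 1.64 and 1.93 lay above all AS rats. The AS rats were the group that stood apart in this gene.

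ENSRNOG00000016432 is a minus-strand gene of chromosome 2 (252500146 to 252505971) with 2 exons in 1951 bases. It was at 0.434 CPM in DSR rat Grp7-L2, 0.626 in Grp7-R7, 0.753 in Grp8-L4, 0.963 in Grp8-L9 and 0.723 in Grp8-R1. AS rats ranged from 1.06 through a median of 1.33 to 2.40 CPM in rat Grp7-R9, which was far above the others. The ranges of the groups did not overlap, but DSR libraries held only 12 to 24 counts of this gene and AS libraries 22 to 57. The log2 fold change was -1.04 with a standard error of 0.24, and -0.69 within cohort 8. CT rats had a mean of 0.861 ± 0.148 CPM and ASR rats of 1.04 ± 0.24 CPM (SD, n = 6 each). The CT mean lay within the range of DSR rats, and the ASR mean lay between the ranges of DSR and AS rats.

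ENSRNOG00000059900, a minus-strand gene of chromosome 16 (19938784 to 19942353) with 5 exons in 837 bases, was at 9.19 CPM in DSR rat Grp7-L2, 7.75 in Grp7-R7, 10.5 in Grp8-L4, 7.26 in Grp8-L9 and 8.43 in Grp8-R1. AS rats ranged from 10.9 through a median of 13.9 to 18.3 CPM. The highest DSR rat and the lowest AS rat, both of cohort 8, were close together. The log2 fold change was -0.71 with a standard error of 0.17 over all rats and -0.31 within cohort 8, where the unadjusted p of 0.124 in edgeR's test missed the threshold. CT rats at 9.43 ± 1.56 CPM and ASR rats at 9.53 ± 2.30 CPM (SD, n = 6 each) had means within the range of DSR rats. Cells of a type that are fewer and cells that hold less of an RNA cannot be told apart in tissue libraries such as these.

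**Figure D5:**
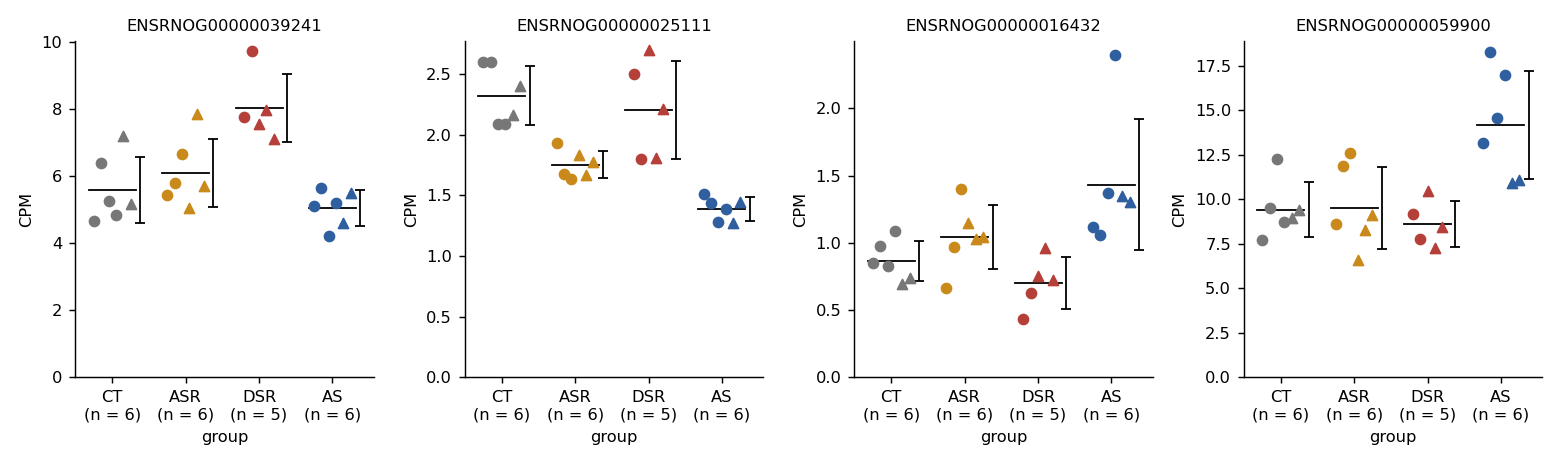
CPM of the 4 genes in each rat by group, each vertical axis starting at 0, with circles for cohort 7, triangles for cohort 8, horizontal bars for means and error bars for SD. In each gene the DSR and AS rats do not overlap, and the cohort 8 AS rats are the lowest AS rats in ENSRNOG00000059900. The mean of CT rats lies within the range of DSR rats in each gene but ENSRNOG00000039241.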

How the data were processed

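RNA of the dorsal striatum was sequenced by the authors with 1 library per rat. Per the submitters' processing notes and the methods of the study, reads were handled with bcl2fastq 2.17, trimmed with Trimmomatic 0.36, mapped to Rnor6.0 with STAR 2.5.2b and counted in exons of Ensembl genes with featureCounts of Subread 1.5.2. The authors deposited raw counts of uniquely mapped reads for 32552 genes, without normalization. Whether counting used the strand is not given in the sources used here, so reads of overlapping genes may be split between them. Total counts per library ranged from 18967015 to 28137676, and low genes therefore carry counting error beside the spread between rats.

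Genes were kept by filterByExpr (minimum count 10, minimum total count 15), which left 16275. TMM factors and edgeR's quasi-likelihood test (edgeR 4.0.16, R 4.3.3) were applied to all 4 groups in one fit, with 19 residual degrees of freedom and DSR minus AS as the contrast. P-values were adjusted over all genes tested by the method of Benjamini and Hochberg. Levels are CPM on TMM-scaled totals, and deviations per rat use log2 CPM with a prior count of 2. Span, exonic length and exon number (exons merged within a gene) are those in the files. Library measures were compared with two-sided exact permutation tests.

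The members, lists and tests were chosen with earlier results of these data known. The files do not pair identifiers with symbols, and 0 identifiers matched the reference table, whose assembly (GRCr8) also differs from that of the files. The gene lists that had been written by symbol, those of the tissue check included, were therefore not analysed here and no sequence is shown. The rule for named genes asked for the 12 higher and the 12 lower genes with a symbol, at least 1.5-fold change, a mean of at least 1 CPM and the smallest p. Without symbols, the first 2 of each direction are given by identifier. The classes by chromosome, exonic length, exon number, level and window, the placing of rats, the reading of one cohort in the other and the thinning to equal depth were added after the data were seen. Alternatives were DESeq2 1.42.0 on all and on only 2 groups, edgeR on only 2 groups, RLE factors, no filter, cohort as a covariate, each cohort by itself, mitochondrial genes left out, a log2 fold change over 1.5, and each rat left out. On simulated counts of 16275 genes drawn for DSR vs AS, edgeR recovered 71 of 100 genes changed 1.5-fold and 90 of 100 changed 2-fold, with 5 false calls, and DESeq2 recovered 76 and 93, with 23 false calls. In the simulation each gene was drawn independently, and only genes with a mean over 1 CPM were changed. It held no shift shared by many genes of a rat, so it checks the tools and does not give the power of the real comparison. By the labels, no rat gave more than 1 library.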

Additional observations from a re-analysis of the deposited data

Results flagged for a closer look

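Within the DSR and the AS group, 34 sets of values were searched for a rat far from the others, and 5 were found, where chance gives about 1 in 20 sets, or 1.7. AS rat Grp7-R1 stood above the other AS rats in the share of counts from mitochondrial genes (19.6%), in the share of the 10 genes with the most counts (20.2%) and in the median deviation of the 13 longer mitochondrial genes (0.66 log2 CPM), and these measures share their reads. AS rat Grp7-L10 had a median deviation of 0.12 log2 CPM in the 448 genes higher in DSR rats, above the other AS rats, and AS rat Grp7-R9 had 2.40 CPM of ENSRNOG00000016432. What set these libraries apart was not tested. Without DSR rat Grp8-L9 and AS rat Grp7-R1 together, edgeR's test called 790 genes at an adjusted p under 0.05 and 4874 at an unadjusted p under 0.05, of which 1374 reached 1.5-fold. At the adjusted threshold, edgeR's test called 0 genes without Grp7-R1 alone and 1954 without Grp8-L9 alone. Grp8-L9 was not among the rats found in this search.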

How the results depend on the processing

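Of 132 counts, shares and medians recomputed under alternatives that kept all rats, thinned them, left out 2 rats or used 1 cohort, 113 stayed within 1.5 times (or 1 SD between rats) of the value reported. The number of genes with an adjusted p under 0.05 was 750 in a DESeq2 fit of all groups, 1811 in one of 2 groups, 32 in cohort 8 and 790 without the pair of rats named above, and 0 in each other edgeR fit of all 11 rats and in cohort 7. In cohort 8, 1345 genes had an unadjusted p under 0.05 (945 higher and 400 lower), the longest genes had a median of 0.079 with 16.8% higher, 2.79% of genes under 10 kb were lower (2.43% of all genes) and 6.29% of X-linked genes were higher (5.74% of all genes). The study's rule gave 1590 genes in cohort 7, where the longest genes had a median of 0.39, 1374 without the pair of rats, 64 with its threshold read as a log2 fold change over 1.5, and 1418 with no filter on low counts. With no filter, which adds genes of very few counts, the median of genes under 10 kb was 0.00, 7.01% of them were lower (8.19% of all genes) and 12.2% of X-linked genes were higher (9.98% of all genes). With 1 rat left out, genes with an adjusted p under 0.05 numbered 0 to 1954, with an unadjusted p under 0.05 2382 to 5265 (1291 to 2626 higher and 1091 to 2643 lower), and by the study's rule 470 to 1446. The higher share of the longest genes was 24.8% to 42.5% (median 0.15 to 0.23). The lower share of genes under 10 kb was 8.67% to 16.0% (median -0.040 to -0.019). The X-linked median was 0.032 to 0.063, with 14.0% to 20.5% higher. Each of these shares was smallest without DSR rat Grp7-R7, where 7.87% of all genes were higher and 6.65% lower. Each was largest without DSR rat Grp8-L9, where 16.0% of all genes were higher and 16.1% lower. Genes under 10 kb were thus lower about as often as all genes without Grp8-L9, and also within cohort 7 (13.1% against 13.7%). Of the 4 genes given by identifier, ENSRNOG00000059900 in cohort 8 alone missed an unadjusted p under 0.05. What caused these shifts remains untested here. No paired analysis was possible because the rat codes in the labels differ between groups and the replicate numbers used here only follow the order of the samples within a group. Counts under 30 per library, as in ENSRNOG00000016432, limit single genes of low level, and 5 against 6 rats limit all of them.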

Other observations

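A group of 23 genes went opposite ways in the cohorts, with a log2 fold change of DSR minus AS rats of -2 or lower in cohort 8 (median -3.05) and of 0.5 or higher in cohort 7 (median 1.47). Over all rats their median was -0.52 and 0 of them had an unadjusted p under 0.05 in edgeR's test. Their median deviation from the median of the 23 libraries was 3.31 log2 CPM in AS rat Grp8-L5, 3.07 in DSR rat Grp7-L2, 2.23 in AS rat Grp7-R1 and 4.05 in CT rat Grp7-R12. In every other rat it was between -1.32 and 1.26. The high libraries thus belonged to 3 groups and both cohorts, and the levels of the genes ran from 0.311 to 278 CPM as means over DSR and AS rats. These genes were picked for their values, and the source of their transcripts was not tested. No hypothesis was formed from them.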
